A study of Mus musculus with 4 samples.

Results

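Myelin and Schwann cell genes were measured in 2 populations of B16-F10 cells, a mouse malignant melanoma line, that had been separated by the amount of the Met receptor on the cell surface. The 7 genes were *Mbp*, *Pmp22*, *Cnp*, *S100b*, *Ngfr*, *Gfap* and *Egr2*, and every non-control probe whose accession belonged to one of them in mouse RefSeq was taken, which gave 12 probes among the 27427 probes that carried a gene symbol and 7 of the 20832 genes they stood for. The genes were chosen from an earlier look at these same arrays, by the difference in intensity between the populations, so their own values are given as a description and without a test.

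The study compared Met-low with Met-high cells to find genes whose expression went with Met on the surface. Both populations came from the same line, grown in medium with fetal bovine serum, sorted on a flow cytometer and kept apart in culture for 3 days before total RNA was taken. Each population was represented by 2 RNA samples, prepared independently per the study's methods, and each sample by 1 array labelled with the dye Cy3. As models the populations are parts of a single melanoma line, cultured after the sort, and not separate tumours or Schwann cells. All 4 arrays lay on a single slide, with the Met-low arrays side by side and the Met-high arrays side by side, so that position on the slide and population cannot be told apart.

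Schwann cells and pigment cells both descend from the neural crest. A myelinating Schwann cell wraps its membrane around an axon, and the layers are held together by myelin proteins, while *Ngfr*, *S100b* and *Gfap* are familiar markers of the Schwann cell lineage, and several of them are also used on melanocytic tumours. The switch to myelination is driven by the transcription factor encoded by *Egr2*, working together with Sox10, a factor that pigment cells use as well.

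Levels are given as intensities after the scanner software's background subtraction and, for comparison between arrays, as scaled log2 levels, which are log2 intensities minus the 75th percentile of the same array. A log2 ratio is the mean scaled level of Met-high minus that of Met-low cells. The 75th percentile lay between intensities of 858 and 1331, and between 50.01% and 53.63% of the spots were well above background by the scanner's own flag. *Met* itself (NM_008591) had scaled log2 levels of -0.26 and -0.89 in Met-low cells and 1.03 and -0.43 in Met-high cells. These ranges overlapped, with a log2 ratio of 0.87 (SE 0.51, adjusted p = 0.332, limma). All 8 melanocyte markers, among them *Mitf*, *Tyr* and *Mlana*, were well above background on all 4 arrays, and their log2 ratios lay between -0.14 and 0.10.

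The upstream sequences of the genes put 3 members side by side that differed in their values. The RefSeq promoter table used here held windows for 6 of the 7 members, namely *Pmp22*, *Cnp*, *S100b*, *Ngfr*, *Gfap* and *Egr2*, and 13 windows in all. The 250 bases before the start of *S100b*, *Gfap* and *Cnp* are printed here, since each had 1 listed start and 1 probe well above background on all 4 arrays, the first 2 with lower levels in Met-high cells and the third not. Each is read from 5′ to 3′ along the gene's own strand in build GRCm38.p6, and capitals mark a match to ACAAAG, a letter string of the kind that SOX factors bind.
S100b, chr10:76253586-76253835, plus strand: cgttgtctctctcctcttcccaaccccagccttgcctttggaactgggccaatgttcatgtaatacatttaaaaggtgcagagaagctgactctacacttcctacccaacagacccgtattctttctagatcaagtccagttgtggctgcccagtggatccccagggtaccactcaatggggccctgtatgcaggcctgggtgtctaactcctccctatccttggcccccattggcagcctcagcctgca
Gfap, chr11:102897201-102897450, minus strand: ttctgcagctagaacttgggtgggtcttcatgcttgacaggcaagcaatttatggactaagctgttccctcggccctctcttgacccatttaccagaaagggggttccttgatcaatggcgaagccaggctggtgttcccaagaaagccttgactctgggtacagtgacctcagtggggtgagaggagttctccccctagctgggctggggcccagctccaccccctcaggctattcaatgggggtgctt
Cnp, chr11:100574689-100574938, plus strand: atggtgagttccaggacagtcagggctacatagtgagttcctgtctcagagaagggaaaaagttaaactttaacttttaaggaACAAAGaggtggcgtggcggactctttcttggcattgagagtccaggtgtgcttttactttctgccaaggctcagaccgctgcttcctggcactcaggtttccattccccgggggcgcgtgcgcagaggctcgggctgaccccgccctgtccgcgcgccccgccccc
The letters searched, on both strands, were ACAAAG and ACAATG for SOX factors, GTGGGCG for EGR factors and CACGTG for the E-box that Mitf can bind. Of 32851 RefSeq windows of this length, 16.5%, 10.69%, 7.02% and 6.02% held them, in that order. In the windows of the members, ACAAAG was found in *Cnp*, from 162 to 167 bases before the start, and 1 of the *Egr2* windows held GTGGGCG on the minus strand and CACGTG, which overlapped each other. None of these letters was in the windows of *S100b*, *Gfap*, *Ngfr* or *Pmp22*, which says nothing more than that these strings are not there.

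*Mbp* encodes myelin basic protein, which holds the inner faces of the myelin membrane together, and it was the member with the largest difference among those well above background on all 4 arrays. Its brightest probe (NM_010777) had intensities of 337 and 544 in Met-low cells and of 53.3 and 60.5 in Met-high cells. Both Met-low arrays lay far above both Met-high arrays. The scaled log2 levels were -1.49 and -1.29 against -4.01 and -4.20, giving means of -1.39 ± 0.14 (SD, n = 2) and -4.10 ± 0.13 (SD, n = 2). The log2 ratio was -2.72, that is, 6.57-fold lower in Met-high cells, which placed *Mbp* at rank 76 from the lowest among 11951 genes. In bulk RNA of this kind, fewer cells with the transcript and less transcript in each cell cannot be told apart.

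The other *Mbp* probes were dimmer. One designed to NM_001025245 read 136 and 189 in Met-low cells and 7.15 and 8.33 in Met-high cells, where it was not well above background. Set against the dimmest probes that still were, the difference was 4.92-fold, lower in Met-high cells, which is given here as a bound. A bound of this kind sets the mean of the brighter population against, for each array of the dimmer one, the dimmest such probe's signal or, if that is higher, the reading of the probe itself, and it holds for the deposited intensities only, since the normexp correction raises dim signals by an offset of 50 and so gives smaller differences. It is not a strict minimum. On the second Met-high array a *Gfap* probe read 34.1 without being well above background, while the dimmest probe that was read 29.3. The third *Mbp* probe was well above background on no array, with intensities from 6.09 to 8.97, and gives no fold. The size of the *Mbp* difference moved with the background correction, the log2 ratio with the normexp correction being -1.74 for the brightest probe and -1.49 for the probe of NM_001025245, and its direction did not.

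*Pmp22*, which encodes a membrane protein of compact myelin whose gene dosage matters in hereditary neuropathy, differed less. Its brighter probe (NM_008885) had intensities of 2454 and 2902 in Met-low cells and 1124 and 1797 in Met-high cells. The groups did not overlap. The scaled log2 means were 1.25 ± 0.18 and 0.54 ± 0.22 (SD, n = 2 each), with a log2 ratio of -0.71, which is 1.64-fold lower in Met-high cells. The second *Pmp22* probe read 686 and 752 against 360 and 488, with a log2 ratio of -0.58, so both probes of the gene gave the same direction.

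*Cnp* encodes an enzyme of the cytoplasm-filled parts of myelin sheaths that oligodendrocytes and Schwann cells share, and it went the other way. Its intensities were 328 and 546 in Met-low cells and 367 and 642 in Met-high cells, so the raw intensities overlapped. After scaling, the log2 levels were -1.52 and -1.29 against -1.22 and -0.79. The scaled levels were apart by only a small gap, between -1.29 and -1.22, and the log2 ratio of 0.40, or 1.32-fold higher in Met-high cells, fell to 0.18 without the second Met-high array.

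**Figure D1:**
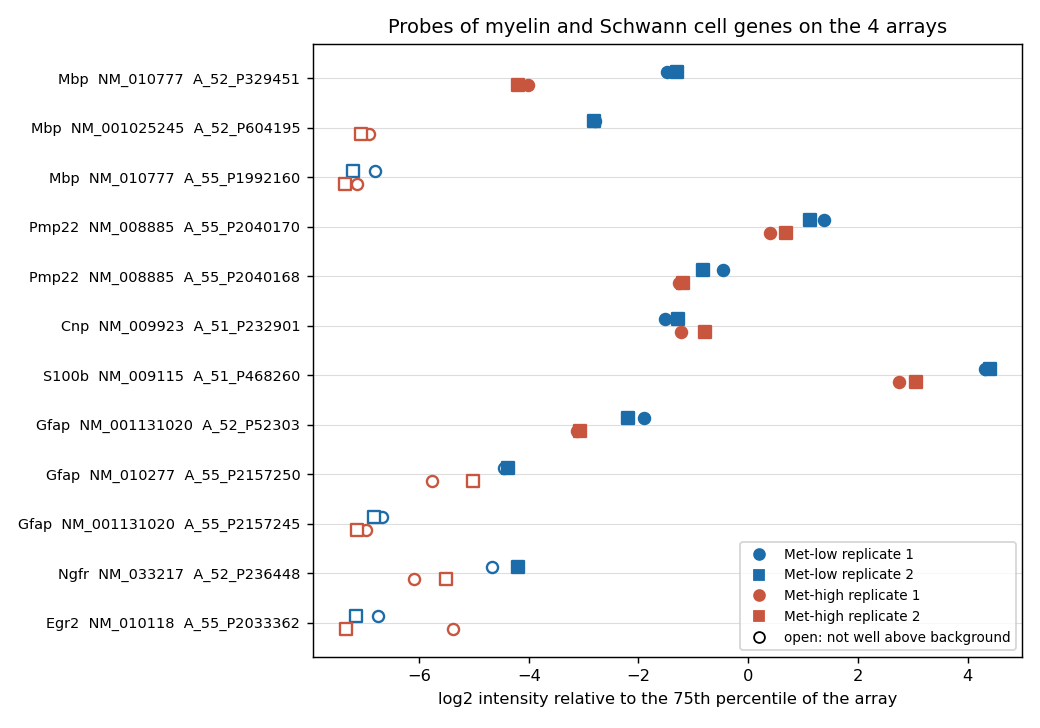
Scaled log2 level (log2 intensity minus the 75th percentile of the array, horizontal axis) of the 12 probes of the 7 genes, a row for each probe, on the Met-low (blue) and Met-high (red) arrays, with circles for replicate 1 and squares for replicate 2 and open points where the probe was not well above background. The brightest *Mbp* probe sits at -1.49 and -1.29 in Met-low cells and at -4.01 and -4.20 in Met-high cells, while the *Cnp* points of the populations lie close together.

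*S100b*, which encodes a calcium-binding protein of glial cells that melanocytic cells also make, was far above background on every array. Its probe (NM_009115) read 18903 and 28352 in Met-low cells and 5775 and 9319 in Met-high cells. Both Met-high arrays were below both Met-low arrays before and after scaling. The scaled log2 means were 4.37 ± 0.06 and 2.91 ± 0.22 (SD, n = 2 each), and the log2 ratio of -1.46 corresponded to a level 2.75-fold lower in Met-high cells, or 36.3% of that in Met-low cells. Its signal was well clear of background, and the normexp correction moved the log2 ratio only to -1.40.

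*Gfap*, which encodes the intermediate filament of astrocytes and of Schwann cells that do not myelinate, was read by 3 probes. The brightest (NM_001131020) had intensities of 253 and 293 in Met-low cells and 99.0 and 132 in Met-high cells. The groups were apart, and the scaled log2 means were -2.04 ± 0.20 and -3.09 ± 0.03 (SD, n = 2 each). The log2 ratio of -1.05 made the level 2.07-fold lower in Met-high cells, and 1.61-fold lower with the normexp correction. A probe of the other transcript (NM_010277) passed the scanner's limit on a single array, the second Met-low one, with intensities of 42.9 and 63.6 against 15.8 and 34.1, and gives neither a fold nor a bound. The third, with intensities from 6.86 to 11.8, was well above background on no array.

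**Figure D2:**
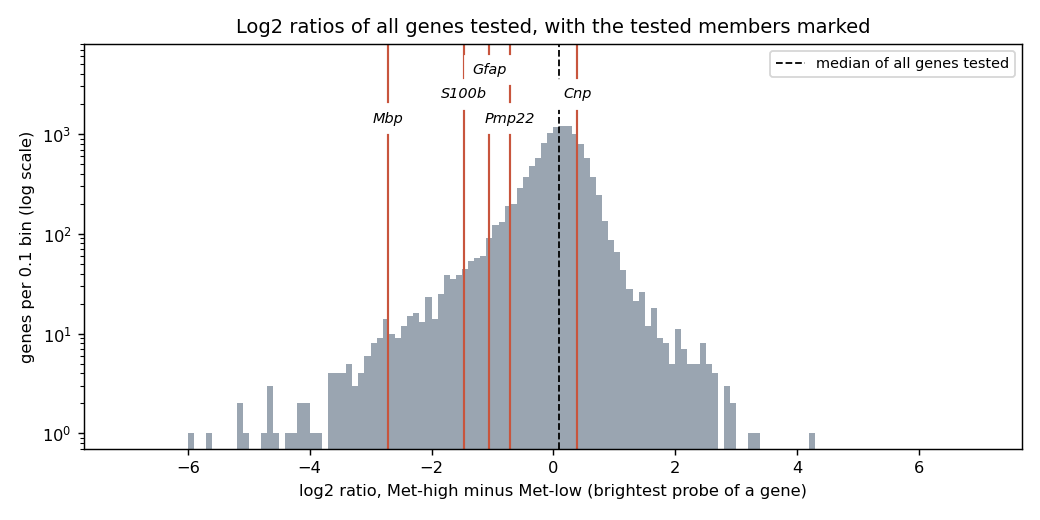
Histogram of the log2 ratios (Met-high minus Met-low, horizontal axis) of the 11951 genes tested, with the number of genes in each bin on a log axis, red lines at the 5 members that passed the rule on dim probes and a dashed line at the median of all genes, 0.10. *Mbp* at -2.72 lies furthest to the left of the 5, then *S100b* at -1.46, *Gfap* at -1.05 and *Pmp22* at -0.71, and *Cnp* at 0.40 lies to the right of the dashed line.

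*Ngfr*, which encodes the low-affinity p75 receptor for neurotrophins found on Schwann cell precursors and neural crest cells, was at the edge of detection. Its probe (NM_033217) was printed 10 times on each array, and its mean intensities were 37.4 and 73.8 in Met-low cells and 13.7 and 26.4 in Met-high cells. On the second Met-low array 10 of 10 spots were well above background, and on the first only 2, the brighter of which was an outlier to the scanner and was left out of the mean. On the Met-high arrays 0 and 1 of the 10 spots were, so neither counts as a measured level. The scaled log2 means were -4.44 ± 0.33 and -5.81 ± 0.42 (SD, n = 2 each). Since a level was measured on 1 array only, the second Met-low one, neither a fold nor a bound is given for *Ngfr*.

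The repeated spots show how far a single reading of so dim a probe can wander. On the first Met-low array the lowest, median and highest intensity were 30.9, 37.0 and 72.1, and on the second 55.7, 72.0 and 117. On the first Met-high array they were 5.64, 12.2 and 25.8, and on the second 12.1, 28.1 and 49.997. The spots of the 2 populations thus overlapped on some arrays although the array means did not. On the log2 scale the spots of an array had SDs of 0.20 and 0.30 in Met-low cells against 0.66 and 0.63 in Met-high cells, the 0.20 being without the outlier spot and 0.36 with it. *Ngfr* did not pass the rule on dim probes, which asked for a probe well above background on both arrays of a population, and its calculated log2 ratio of -1.37 shrank to -0.29 with the normexp correction.

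**Figure D3:**
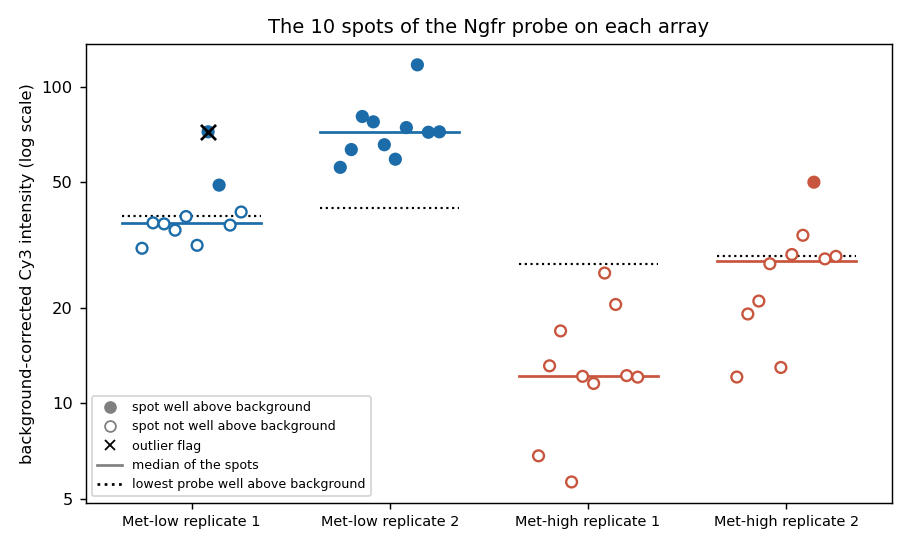
Intensity, on a log axis, of each of the 10 spots of the *Ngfr* probe on the 4 arrays, filled where the spot was well above background, with a cross on the outlier spot, a line at the median of each array's spots and a dotted line at the lowest probe well above background on that array. The second Met-low array has a median of 72.0 and all its spots filled, and the Met-high arrays have 0 and 1 filled spot.

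*Egr2*, which encodes the transcription factor that switches Schwann cells to myelination, was not detected. Its probe (NM_010118) read 8.80 and 9.32 in Met-low cells and 20.7 and 6.91 in Met-high cells, all not well above background, so no fold is given. The higher of the Met-high readings stood alone, and the calculated log2 ratio of 0.60 turned to -0.38 without it. The absence of signal is a limit of this probe on these arrays, not a measure of how little transcript there was.

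Of the 7 members, 5 passed the rule on dim probes and 2, *Ngfr* and *Egr2*, did not. Of the 5, *Mbp*, *Pmp22*, *S100b* and *Gfap* had a lower mean in Met-high cells, as did 40.5% of all 11951 genes that passed. In the same 4 the arrays of the populations did not overlap, an arrangement with Met-low on top that 22.6% of all genes had, and *Cnp* had the reverse, found in 35.7%. In *Mbp*, *S100b* and *Gfap* the level fell by more than a factor of 2, as it did in 5.3% of all genes. Since this difference took part in the choice of the genes, nothing is read from these counts. The median log2 ratio of the 5 was -1.05, and that of all genes tested was 0.10.

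The genes whose pattern over the 4 arrays was nearest to that of *Mbp*, by the Euclidean distance of scaled log2 levels after removing each gene's mean, were *Zfp984*, *Znf41-ps* and *Timp3*, among 11950 others. *Timp3*, an inhibitor of metalloproteinases, had scaled log2 levels of 0.62 and 0.53 in Met-low cells and -2.16 and -2.13 in Met-high cells, at a distance of 0.26. *Zfp984*, which belongs to a large family of zinc finger genes whose members can share probes, stood at a distance of 0.14 with a log2 ratio of -2.73. *Znf41-ps*, a pseudogene, was at 0.25 and in Met-high cells was below the scanner's limit.

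Other genes were held in 8 lists with none of the 7 members, 121 genes in all, of which 65 passed the rule on dim probes. Besides compact myelin and the Schwann cell lineage, the lists covered oligodendrocytes, intermediate filaments and astrocytes, neurotrophins, and relatives of *S100b*, *Pmp22* and *Egr2*. Of those, 6 were lower and 4 higher in Met-high cells by limma with an adjusted p under 0.05 over all genes, that is, 9.23% and 6.15%, while 3.78% and 1.92% of all genes tested were. Another 55 were not called, and 49 of the 121 had a brightest probe that was above that limit on none of the arrays. The median log2 ratio of the 65 was -0.05, against 0.10 for all genes. The lists are described by these counts, and their difference from all genes was not tested. Of the 6, *Mal*, *Pllp*, *Gja1*, *Bdnf* and *Ntrk3* passed the rule on dim probes only through Met-low cells, where they were higher. *Artn*, of the 4, passed only through Met-high cells. With all arrays required to be well above background, 3 of 54 list genes were called lower and 3 higher, against 400 and 220 of 11226 genes. Of the 6 lower calls only *Aldh1l1* was still tested and kept, and the other genes called lower there had not been called before. The 3 called higher were *Egr1*, *Glul* and *Gpr37*. With no filter on dim probes, none of the 10 calls held (adjusted p from 0.0735 to 0.184).

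Among 27 genes of compact myelin and its lipids, 12 were tested, 2 were lower in Met-high cells and 0 were higher. By limma's unadjusted p under 0.05 they were 4 and 1, a threshold at which 11.9% of all genes tested were lower and 14.3% higher. The list's median log2 ratio was -0.14. *Mal*, which encodes a proteolipid that sorts cargo to membranes and sits in myelin, had scaled log2 levels of -4.37 and -4.72 in Met-low cells and -7.06 and -7.25 in Met-high cells, where the probe did not clear background. It was lower there by a bound, of the kind used for *Mbp*, of 1.47-fold. The calculated log2 ratio was -2.61 (adjusted p = 0.0070, limma). Here and below such a p-value belongs to the calculated ratio, and the bound was not tested. *Pllp*, which encodes plasmolipin, a related protein of myelin membranes, stood at -3.54 and -3.99 against -5.42 and -5.36. It was lower in Met-high cells, where it was not well above background either, by a bound of 2.53-fold. The calculated log2 ratio was -1.62 (adjusted p = 0.0191, limma). Neither passed with the normexp correction, which brought the log2 ratio of *Mal* from -2.61 to -0.62 (adjusted p = 0.108) and that of *Pllp* from -1.62 to -0.46 (adjusted p = 0.237). In 14 of the 27 the brightest probe was well above background nowhere.

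Of 25 genes of the Schwann cell lineage outside the members, 17 were tested, and 0 were lower and 1 higher in Met-high cells. By limma's unadjusted p under 0.05 they were 6 and 3. The 6 were *Sox9*, *Jun*, *Ncam1*, *Lgi4*, *Zeb2* and *Cdh19*, with log2 ratios from -1.32 to -0.83 (adjusted p from 0.0534 to 0.155, limma). The 3 were *Artn*, *Erbb2* and *Sox10*. The mean was lower in Met-high cells in 13 of the 17, as it was in 40.5% of all genes tested, and the median log2 ratio was -0.28. The gene called higher was *Artn*, a ligand of the GDNF family, with scaled log2 levels of -4.84 and -4.40 against -3.26 and -3.44. Its log2 ratio was 1.27 (SE 0.21, adjusted p = 0.0360, limma). It was well above background on 1 of the Met-low arrays and did not pass with the normexp correction (adjusted p = 0.0924). Its call was also lost with the percentile taken over detected probes (adjusted p = 0.0563) and with a variance trend in limma (adjusted p = 0.0582). It was lost as well without the first Met-low array, where the log2 ratio was 1.05. *Sox10*, picked out with its values in view, since it acts beside *Egr2* on myelin genes, had levels of 5.31 and 5.13 against 5.69 and 5.81, a log2 ratio of 0.53 that was not called (adjusted p = 0.129).

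**Figure D4:**
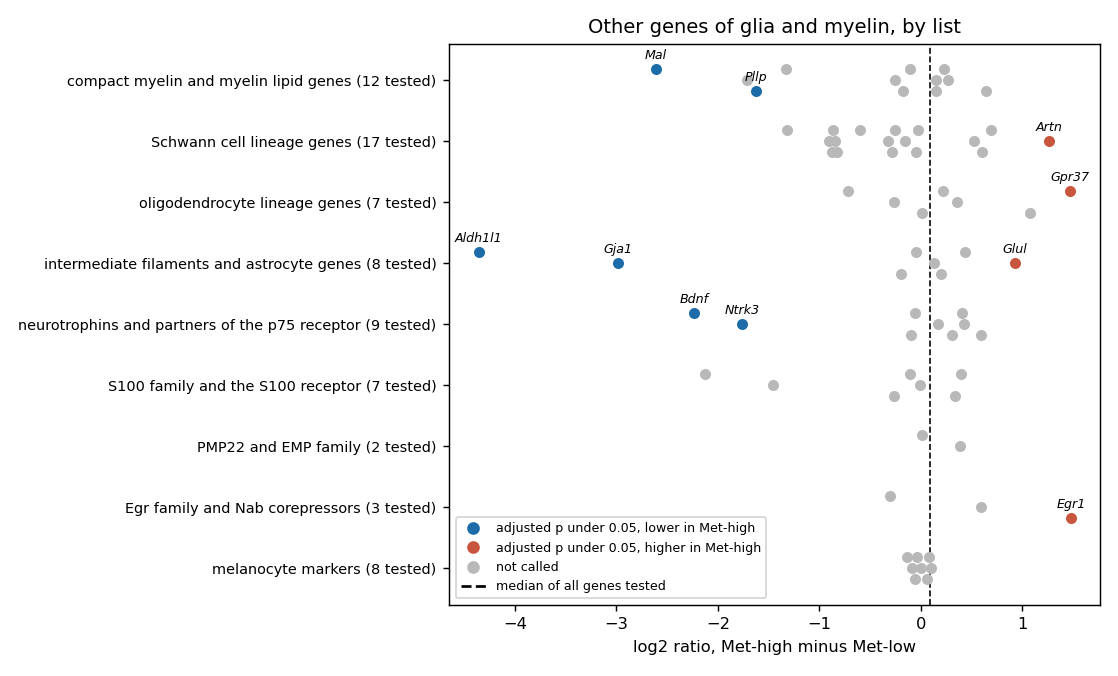
Log2 ratio (Met-high minus Met-low, horizontal axis) of the 65 genes tested in the 8 lists and of the 8 melanocyte markers, a point for each gene with no meaning in the small vertical offsets, blue or red and named where limma called it lower or higher in Met-high cells and grey where it was not called, with a dashed line at the median of all genes tested. Of the points, 6 are blue and 4 red, and the melanocyte markers lie in a narrow band from -0.14 to 0.10.

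The oligodendrocyte list, for the cells that make myelin in the brain, had 7 of 12 genes tested, with 0 called lower and 1 higher by limma, and 1 and 2 at an unadjusted p under 0.05. *Gpr37*, a receptor found in oligodendrocytes, was the one that rose, with scaled log2 levels of -0.44 and -0.88 in Met-low cells and 0.96 and 0.66 in Met-high cells (log2 ratio 1.47, SE 0.22, adjusted p = 0.0284). The list's median was 0.22.

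Around *Gfap*, 15 genes of intermediate filaments and astrocytes held 8 that were tested, of which 2 were lower and 1 was higher in Met-high cells. Their median log2 ratio was 0.04. *Aldh1l1*, which encodes an enzyme of folate metabolism used to mark astrocytes, fell from scaled log2 levels of 0.72 and 0.82 to -4.02 and -3.17, a 20.5-fold lower level (log2 ratio -4.36, SE 0.30, adjusted p = 0.0065). *Gja1*, which encodes the gap junction protein connexin 43, was lower in Met-high cells, where it was not well above background, by a bound of 2.00-fold. Its calculated log2 ratio of -2.99 (adjusted p = 0.0066, limma) became -0.90 with the normexp correction. *Glul*, which encodes glutamine synthetase, rose from 1.09 and 1.24 to 2.05 and 2.14 (log2 ratio 0.93, SE 0.16, adjusted p = 0.0395), a call that was lost with any 1 of the 4 arrays left out. None of the 3 encodes a filament protein.

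Around *Ngfr*, 9 of 15 genes for neurotrophins, their other receptors and p75 partners were tested, and 2 were lower and 0 higher in Met-high cells. At limma's unadjusted p under 0.05 they were also 2 and 0, and the median was 0.17. *Bdnf*, a neurotrophin that p75 binds, had scaled log2 levels of -4.21 and -3.45 against -6.52 and -5.61. It was lower in Met-high cells, where it was not well above background, by a bound of 2.41-fold. The calculated log2 ratio was -2.24 (adjusted p = 0.0408, limma). *Ntrk3*, the receptor kinase for neurotrophin-3, had -3.24 and -3.41 against -4.65 and -5.52, a log2 ratio of -1.76 (SE 0.31, adjusted p = 0.0408), and was well above background on 1 of the Met-high arrays. Its other 3 probes gave -2.20, -1.63 and -0.16, the last well above background on no array. The call of *Ntrk3* was lost with the mean of its probes that passed the rule on dim probes (adjusted p = 0.229) and with the normexp correction (adjusted p = 0.0998). That of *Bdnf* was lost with quantile scaling (adjusted p = 0.0650) and with the normexp correction, where its log2 ratio went from -2.24 to -0.61 (adjusted p = 0.0936).

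Of the relatives of *S100b*, 16 genes with the S100 receptor *Ager* included, 7 were tested and 0 were called in either direction by limma, at the adjusted and at the unadjusted threshold alike. Their log2 ratios ran from -2.13 to 0.40 with a median of -0.10. The lowest, that of *S100a6*, named with its values seen, rested on the second Met-low array, with scaled log2 levels of -2.78 and 1.55 against -3.19 and -2.30, and without that array the ratios ran from -0.42 to 0.58. Of the 6 relatives of *Pmp22*, the tetraspan genes *Emp1* and *Emp3* were tested, with log2 ratios of 0.39 (SE 0.27, adjusted p = 0.403) and 0.02 (SE 0.21, adjusted p = 0.973), and 0 reached even an unadjusted p under 0.05 in limma. *Emp2*, *Lim2*, *Perp* and *Tmem47* were well above background on no array.

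Of the relatives and corepressors of *Egr2*, *Egr1*, an immediate early gene, rose from scaled log2 levels of -3.42 and -3.52 to -1.71 and -2.27, a log2 ratio of 1.48 (SE 0.23, adjusted p = 0.0310). Its call was lost with the percentile taken over detected probes (adjusted p = 0.0565). *Nab1* and *Nab2*, which encode corepressors of Egr proteins, had log2 ratios of -0.31 (SE 0.18, adjusted p = 0.337) and 0.59 (SE 0.31, adjusted p = 0.287) and were not called. *Egr3* and *Egr4* were, like *Egr2*, well above background on no array.

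Genes that mark other cells were read beside the members. Of the fibroblast markers 4 of 7 were well above background on no array, and their summed level, with the 75th percentile of each array set to 1, was 0.65 and 0.68 in Met-low cells and 0.38 and 0.33 in Met-high cells. *Col1a2* was the single fibroblast gene tested and was lower in Met-high cells (log2 ratio -1.10, SE 0.17, adjusted p = 0.031). The summed levels of neuron markers were 8.48 and 6.32 against 6.24 and 5.85, and 3 of those 5 genes were well above background nowhere. For immune cells 3 of 5 were, *Ptprc* (CD45) among them, and the sums were 3.91 and 4.77 against 4.08 and 3.85. Endothelial sums were 6.31 and 5.48 against 8.44 and 6.72 with 2 of 4 nowhere above background, and keratinocyte sums lay between 0.11 and 0.13 with 3 of 5 nowhere above it. The first 4 sums came mostly from the few genes well above background on all 4 arrays. These were *Col1a2* for fibroblasts, *Tubb3* and *Snap25* for neurons, *Csf1r* and *Itgam* for immune cells and *Kdr* for endothelial cells. The part of the fibroblast and neuron markers in the lower levels of *Mbp*, *S100b* and *Gfap* was not tested. The melanocyte markers summed to 1747 and 1431 in Met-low cells and 1738 and 1514 in Met-high cells.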

How the data were processed

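RNA of 2 Met-low and 2 Met-high samples was hybridised to Agilent 1-colour arrays. The authors deposited each array's scanner output, in which the intensity of every spot had been background-subtracted by Feature Extraction (11.0.1.1 in the file headers, 10.7.3.1 in the submitters' processing notes). They also deposited a table of log2 values for the same arrays, centred on each probe's median over the 4 arrays (array medians 0.15 and -0.04 for Met-low, 0.04 and -0.12 for Met-high), which served as an alternative; its differences between arrays followed the scanner values in scale and direction, and the probes' levels before centring are unknown. The deposited intensities were floored at 0.01, which changed 0 spots, and their log2 values were lowered by each array's 75th percentile. Outlier spots (207 to 232 of 43020 on an array) were left out, 0 spots were saturated, and repeat spots were averaged per probe. A probe counted as well above background on an array where most of its spots did. The brightest probe stood for a gene, and genes that passed this on both arrays of either population were tested (11951) with limma 3.58.1 in R 4.3.3 (lmFit, eBayes, Benjamini-Hochberg over all genes tested). The number of arrays limits the precision: 2 against 2 allow 3 splits, so no permutation test can reach 0.05. The p-values set each difference against the spread between these samples, with each gene's variance drawn towards that of all genes tested. For a gene not well above background in a population, such as *Mal* or *Gja1* in Met-high cells, that spread includes readings that do not count as measured levels. Gene names came from RefSeq through probe accessions, for 27427 of 39429 probes, and promoter windows from RefSeq (GRCm38.p6). Fold limits for undetected genes used, on each dim array, the higher of the probe's own signal and the lowest probe well above background (27.6 to 41.4). The genes named were the members, the list genes called by limma, all genes of the Egr and PMP22 families, the 3 genes nearest to *Mbp*, and *Met*. *Sox10*, *S100a6*, the Schwann cell lineage genes named by their unadjusted p and the marker genes fall outside that rule. The members and lists were chosen with earlier results of these data known. The calculation was tested on simulated data. The alternatives tried were normexp, quantile scaling, detected probes only for the percentile, no filter or a stricter one, keeping outlier spots, averaging probes, the authors' values, leaving out each array, a block for the replicate number, a variance trend and, added after seeing the data, a filter on any spot.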

Additional observations from a re-analysis of the deposited data

How the results depend on the processing

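Leaving out the filter on dim probes brought the genes called lower and higher in Met-high cells from 452 and 230 to 7 and 0 (1466 and 1192 at limma's unadjusted p under 0.05), and those in the 8 lists from 6 and 4 to 0 and 0 (14 and 9 unadjusted), over 20788 genes in place of 11951. With the 75th percentile taken over detected probes, 593 genes were lower and 139 higher, 81.0% lower in place of 66.3%, 1 list gene was higher, and the median log2 ratio of all genes went from 0.10 to -0.05. A variance trend called 395 genes higher. With all 4 arrays required to be above background, 54 list genes were tested and 3 called lower. Only 4 of the 10 genes called before were still tested, and of these *Aldh1l1* alone was lower in Met-high cells. Replicate numbers were shared by the populations, and arrays with the same number deviated together (r = 0.54 across 11951 genes, which are not independent replicates), but with 2 pairs this does not establish pairing. With the replicate block, 1578 genes were lower and 1962 higher, and 15 and 10 in the lists. The cause of these changes was not tested. With each array left out in turn, genes called lower ranged from 433 to 613 and higher from 155 to 266, list genes lower from 6 to 9 and higher from 2 to 4 (2 without the first Met-low array, where *Artn* and *Glul* were lost), and members with a lower mean from 5 to 6. The count of members was over all 7, *Ngfr* and *Egr2* included, and reached 6 through *Egr2* without the first Met-high array. Of the 10 called list genes, 5 kept their call with normexp, 8 with quantile scaling and 7 with the detected percentile. All 10 kept their direction in every setting that fitted them. The changed filters, the replicate block and the variance trend left their log2 ratios as they were and moved only the p-values. Direction could not turn there, and the genes had been called on this same contrast.

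*Mbp*, *S100b*, *Gfap* and *Pmp22* were lower and *Cnp* higher in Met-high cells under each of the 12 alternatives computed for them. Those did not include the missing filter, the variance trend or the filter on any spot. The stricter filter, the kept outlier spots and the replicate block left these ratios as they were, so no direction could turn there. Averaging probes changed only *Mbp* and *Pmp22*. The genes were chosen by this difference, so the shared direction is a description. The *Mbp* log2 ratio ran from -3.45 (mean of its probes) to -1.74 (normexp) and that of *Ngfr* from -1.66 to -0.29. *Egr2* alone turned, its ratio running from -0.38 without the first Met-high array to 1.57 without the second. Signals near background set the limit for *Ngfr*, *Egr2* and the dimmer *Mbp* and *Gfap* probes, for which only bounds or no fold can be given.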
